A study of Mus musculus with 15 samples.

Results

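Mitochondrial respiration and ATP synthesis depend on 5 protein complexes whose subunits are mostly encoded in the nucleus, and the transcripts of these nuclear genes were examined in erythro-myeloid progenitors (EMPs) of the mouse yolk sac (YS) at E10.5. Genes were taken by name from a table of RPKM, the reads on a gene per kilobase of its model, scaled to the reads on all genes: every name that begins with Nduf, Uqcr, Atp5, Cox4, Cox5, Cox6, Cox7 or Cox8, together with *Sdha*, *Sdhb*, *Sdhc* and *Sdhd*. This gave 90 of the 17454 genes of the table. From their known functions 43 were placed in complex I, of which 7 are core subunits, 29 accessory subunits and 7 assembly factors, 4 in complex II, 8 in complex III, 16 in complex IV and 15 in complex V. *Ndufa4* carries a complex I name and was placed in complex IV, where it is now counted as a subunit. The other 4 belong to none of the complexes as subunits: *Cox7a2l*, which helps to join complexes III and IV, *Ndufa4l2*, a paralog of *Ndufa4*, and *Atp5s* and *Atp5sl*, which carry complex V names.

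Complex I takes electrons from NADH and complex II, succinate dehydrogenase, takes them from succinate. Both pass them through ubiquinone to complex III and on through cytochrome c to complex IV, cytochrome c oxidase, which reduces oxygen, and the proton gradient built on the way drives complex V, the ATP synthase. Complex II is made of nuclear gene products alone, whereas each other complex also holds subunits encoded by mitochondrial DNA, and several subunits of complexes IV and V exist as isoforms with their own tissue patterns.

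The study asked how the transcriptome of YS EMPs changes when *Ezh2*, the catalytic subunit of the Polycomb complex that methylates histone H3 at lysine 27, is inactivated in endothelium or only later in blood cells. All embryos were C57BL/6 and carried *Ezh2* alleles with loxP sites on both chromosomes (Ezh2fl/fl), whose SET domain is removed by Cre. Tie2-Ezh2-KO embryos also carried Tie2-Cre, which acts in endothelium and its blood progeny, and Vav-Ezh2-KO embryos carried Vav-iCre, which acts in blood cells. The Tie2-Ezh2-WT and Vav-Ezh2-WT embryos are Cre-negative and so have intact *Ezh2* alleles. EMPs were sorted as LIN−SCA1−KIT+CD16/32+CD41+ cells, and each library was made from 1 YS, giving 5 libraries of each knockout, 3 of Tie2-Ezh2-WT and 2 of Vav-Ezh2-WT. The 5 WT libraries were pooled as controls of both knockouts, so the comparisons of either knockout with WT share these libraries.

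*Ezh2* itself was measured at 36.9, 39.5 and 30.1 RPKM in Tie2-Ezh2-WT and at 42.0 and 41.5 RPKM in Vav-Ezh2-WT libraries. The Tie2-Ezh2-KO libraries had 27.8, 26.2, 24.8, 29.5 and 26.5 RPKM, all below every WT library, and the Vav-Ezh2-KO libraries had 33.7, 42.4, 37.8, 38.1 and 34.0 RPKM, mostly within the WT range. In limma the log2 change of *Ezh2* against WT was -0.48 in Tie2-Ezh2-KO (adjusted p = 0.0418, lower in 5 of 5 libraries) and -0.02 in Vav-Ezh2-KO (adjusted p = 0.969). The value covers reads on the whole gene, outside the deleted SET domain too, so it checks the Cre genotype only in part. Totals recovered from the steps between low RPKM values lay between 10407398 and 41025074 reads on genes per library, with a median of 16091836. At this depth 83 of the 90 genes had at least 100 reads in every library, 62 had at least 1000, and 2 had under 10 in every library. Together the 90 genes took between 2.36% and 3.34% of the reads of a library and between 4.74% and 6.37% of its summed RPKM. Reads were amplified by PCR and are not independent molecules, so counting error is not the only error behind these values.

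Markers were read before the respiratory genes. All 9 measured EMP markers were detected in every library, with summed levels between 536 and 746 RPKM and *Gata1* as the most abundant, and the 3 measured markers of cells that the gate removes summed to at most 2.95 RPKM. Of 6 names searched for primitive erythroid genes, which include a synonym, 5 were in the table, led by the embryonic globin *Hbb-bh1*. They summed to 317, 588, 861, 198 and 289 RPKM in Tie2-Ezh2-KO libraries, against 149, 131 and 147 RPKM in Tie2-Ezh2-WT, 71.8 and 122 RPKM in Vav-Ezh2-WT and 88.2, 129, 64.2, 159 and 157 RPKM in Vav-Ezh2-KO. Each Tie2-Ezh2-KO library therefore lay above each of the other 10. All 8 visceral endoderm genes, led by *Apoa1*, summed to 174 RPKM in Tie2-Ezh2-WT replicate 4 and 245 RPKM in Tie2-Ezh2-KO replicate 7 and to between 1.88 and 14.9 RPKM elsewhere. Endothelial genes (7 of 8, led by *Pecam1*) summed to between 29.8 and 62.0 RPKM, megakaryocyte genes (7 of 7, led by *Pf4*) to between 73.5 and 279 RPKM, macrophage genes (7 of 8 names, which include a synonym, led by *Csf1r*, with *C1qa* at 0 in all libraries) to between 1.41 and 11.5 RPKM and mesenchyme genes (8 of 8, led by *Pdgfrb*) to between 1.32 and 3.21 RPKM. The part of these other transcripts in the differences described here was not tested, apart from leaving out both libraries with visceral endoderm transcripts. In such bulk libraries fewer cells of a type and less RNA per cell cannot be told apart.

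Most of the respiratory genes were among the abundant transcripts of YS EMPs. Of the 90, 71 (78.9%) had a mean above 100 RPKM over the 15 libraries, against 1282 of all genes (7.35%), and 85 had a mean above 10 RPKM. The median of the means was 267 RPKM, against 1.92 RPKM over the table. Subunit genes had median levels of 238 RPKM in complex I, 333 in complex II, 494 in complex III, 431 in complex IV and 539 in complex V. The most abundant member was *Atp5b*, the catalytic beta subunit of the ATP synthase, at 1318 RPKM, followed by *Uqcr11* of complex III at 1028, *Cox4i1* of complex IV at 1012, and *Ndufb8* of complex I at 996 RPKM. A mean under 1 RPKM was found for 4 members: *Cox7b2*, *Ndufa4l2*, *Cox6a2* and *Ndufs5*. *Ndufs5*, a subunit that complex I needs, is listed at 0 in all libraries but 1, and no level of expression is read from this. The means are over all 15 libraries, and none of the 4 was part of a difference that passed the adjusted threshold.

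**Figure D1:**
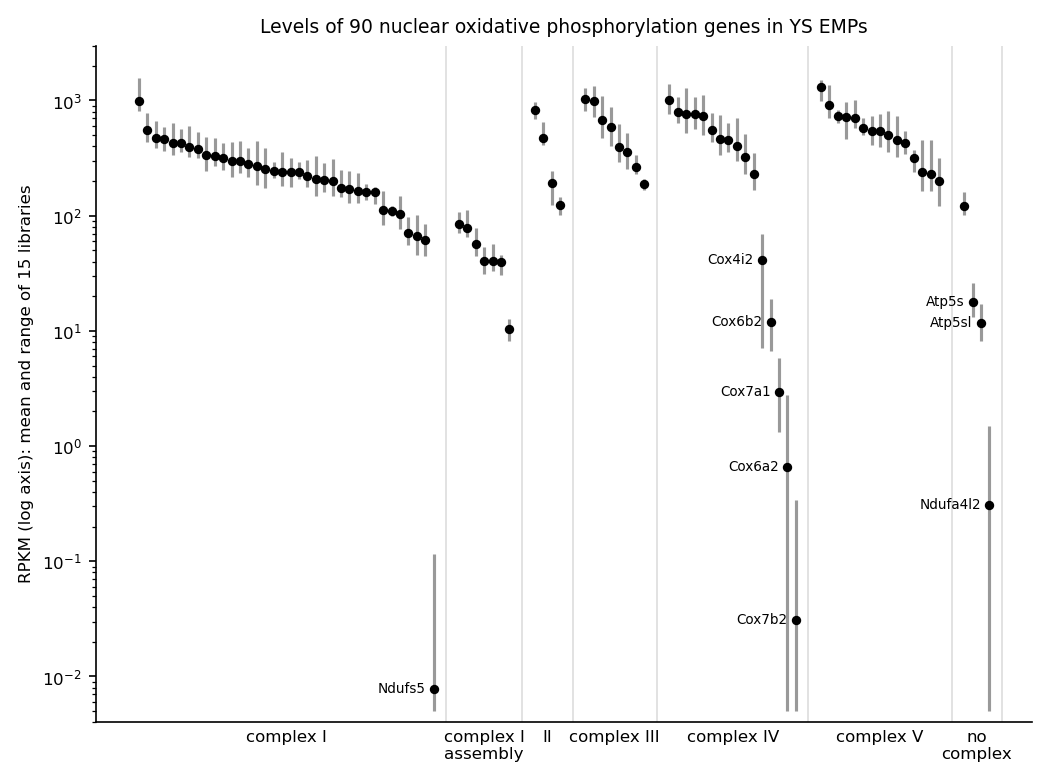
Level of each of the 90 genes by complex, on a log axis in RPKM, with the mean (point) and the range (line) of 15 libraries; ranges that reach 0 end at the lower edge. Most subunit genes lie above 100 RPKM, and the complex I assembly factors lie between 10.4 and 84.6 RPKM. The genes named in the plot have means of 41.1 RPKM (*Cox4i2*) or less.

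For the 85 members with a mean of at least 10 RPKM the median SD of log2 values was 0.22 in Tie2-Ezh2-WT, 0.07 in Vav-Ezh2-WT, 0.29 in Tie2-Ezh2-KO and 0.22 in Vav-Ezh2-KO, and 0.18 in the pooled WT libraries. Over all 5466 genes at that level, which include the members and are mostly less abundant, it was 0.16, 0.10, 0.24, 0.17 and 0.18. The RPKM of all 90 genes summed to 25797, 28496 and 33737 in Tie2-Ezh2-WT, to 30163 and 28862 in Vav-Ezh2-WT, to 27781, 39475, 29528, 25548 and 29559 in Tie2-Ezh2-KO, and to 31837, 32892, 36403, 28889 and 39329 in Vav-Ezh2-KO libraries. Tie2-Ezh2-KO replicate 9 stood well above its group, and Vav-Ezh2-KO replicate 28 was nearly as high. The mean was 29411 ± 2893 (SD, n = 5) in WT, 30378 ± 5344 (SD, n = 5) in Tie2-Ezh2-KO and 33870 ± 4066 (SD, n = 5) in Vav-Ezh2-KO, so the ranges of all groups overlapped. Of this sum WT libraries had 30.9% in complex I, 5.33% in complex II, 14.5% in complex III, 20.5% in complex IV and 27.2% in complex V. In these shares and in the medians by complex given below, complex I stands for its subunit genes without the assembly factors. The complex IV share was 19.6%, 20.6% and 20.2% in Tie2-Ezh2-WT, 21.0% and 20.9% in Vav-Ezh2-WT, 19.1%, 20.7%, 18.9%, 19.6% and 20.9% in Tie2-Ezh2-KO, and 21.7%, 22.3%, 21.8%, 21.0% and 24.6% in Vav-Ezh2-KO. It was thus highest in Vav-Ezh2-KO EMPs, at 22.3% ± 1.36 (SD, n = 5), but the lowest of these libraries was level with the highest WT library. These sums are given as a description and were not tested.

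**Figure D2:**
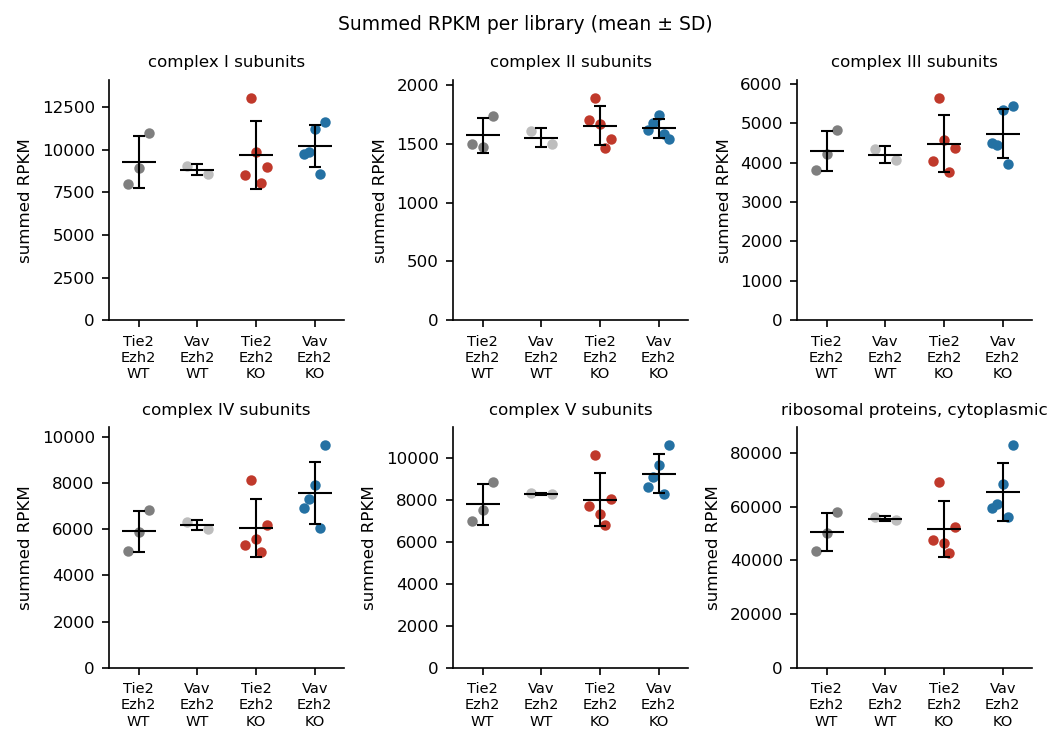
Summed RPKM in each library of the subunit genes of complexes I to V and of the cytoplasmic ribosomal protein genes, by group; points are libraries, bars the mean and SD. The groups overlap in each panel, and the highest member sums are 39475 in Tie2-Ezh2-KO replicate 9 and 39329 in Vav-Ezh2-KO replicate 28.

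In Tie2-Ezh2-KO EMPs the median over the respiratory genes was close to WT and 1 member passed the threshold. With limma on log2(RPKM + 0.2) and Benjamini-Hochberg adjustment, 1 of 89 members tested passed the threshold of 0.05, the complex IV isoform *Cox4i2*, which rose, against 386 of 14154 genes (2.73%; 2.42% rose). At an unadjusted p under 0.05 there were 3 members, *Cox4i2*, *Cox6b2* and the complex III iron-sulfur protein *Uqcrfs1*, all higher, against 11% of all genes (8.22% higher), and 5 without Tie2-Ezh2-KO replicate 13 (1560 of 14031 genes). The groups did not overlap for 0 members in either direction, against 4.01% of all genes (3.29% higher). The median change over the members was 0.03, beside 0.01 over all genes tested, with 56 members higher and 33 lower. By complex the median was 0.05 for complex I, 0.05 for complex II, 0.02 for complex III, 0.02 for complex IV and -0.02 for complex V. The sign and size of the median over all members are not firm: it was 0.09 without Tie2-Ezh2-KO replicate 13, 0.08 without Tie2-Ezh2-WT replicate 12, 0.05 without Tie2-Ezh2-KO replicate 7, and 0.02 without Vav-Ezh2-WT replicate 6. It was -0.07 without Tie2-Ezh2-KO replicate 9, -0.01 without Tie2-Ezh2-WT replicate 4, -0.01 with array weights and -0.00 after scaling to a common median.

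In Vav-Ezh2-KO EMPs 0 of 88 members tested passed the adjusted threshold in limma, against 1 of 13646 genes (0.00733%), and limma with voom weights on the recovered reads also called 0. At an unadjusted p under 0.05 limma had 27 members (26 with voom), 26 of them higher and 1, the assembly factor *Ndufaf1*, lower, against 7.93% of all genes (4% higher and 3.93% lower). This count moved with single libraries: it was 46 without Tie2-Ezh2-WT replicate 12 (1236 of 13586 genes in all), 43 without Vav-Ezh2-KO replicate 26 (1218 of 13560), 17 without Vav-Ezh2-KO replicate 10 (962 of 13581), 15 without Vav-Ezh2-KO replicate 28 (899 of 13577) and 15 without Tie2-Ezh2-WT replicate 4 (807 of 13464). It was also 17 with all 15 libraries in one fit (830 of 14394 genes), 17 with a common median (867 of 13646), 15 without the trend (937 of 13646), 10 after removal of the length trend (937 of 13646) and 10 with Vav-Ezh2-WT controls only (738 of 13284). The median change was 0.19, beside -0.02 over all genes tested, and 76 members were higher than in WT. It was 0.20 for complex I, 0.06 for complex II, 0.17 for complex III, 0.34 for complex IV and 0.24 for complex V, where all 15 genes were higher. The groups did not overlap for 1 member, *Ndufaf2*, which was higher, against 1.41% of all genes (0.601% higher). After removing each library's trend with gene length, a step added after seeing the data, the median over the members was 0.05, and after quantile normalization it was 0.10.

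Compared directly, Tie2-Ezh2-KO EMPs had a median change of -0.14 against Vav-Ezh2-KO EMPs, beside 0.04 over all genes tested, with 27 members higher and 62 lower. limma called 0 of 89 members, against 495 of 14120 genes (3.51%; 2.63% higher and 0.871% lower), and voom weights also gave 0. At an unadjusted p under 0.05 limma had 17 members (23 with voom), 4 higher and 13 lower, against 16.6% of all genes (6.05% lower). This count was 45 without Tie2-Ezh2-KO replicate 9 (3104 of 14004 genes), 33 without Vav-Ezh2-KO replicate 26 (2220 of 14057), 31 with array weights (2827 of 14120) and 10 with a common median (2206 of 14120). The groups did not overlap for 2 members, *Cox4i2* and *Ndufaf4*, both higher in Tie2-Ezh2-KO, against 5.23% of all genes (3.56% higher). By complex the median was -0.14 for complex I, 0.04 for complex II, -0.17 for complex III, -0.29 for complex IV and -0.23 for complex V, where 14 of 15 genes were lower. This comparison rests on single libraries: without Tie2-Ezh2-KO replicate 9, the library with the highest summed RPKM of its group, 17 members passed the threshold, all lower, beside 969 of 14004 genes, of which 630 were higher, while 1 passed without Vav-Ezh2-KO replicate 9 (*Cox4i2*) and 1 without Vav-Ezh2-KO replicate 26 (*Cox6c*). The median over members was -0.22 without Tie2-Ezh2-KO replicate 9, -0.08 after quantile normalization and -0.08 with a common sum. After the length trend was removed it was -0.00, and *Cox4i2* and *Ndufa8* were called, both higher.

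The difference between the effects of both knockouts, each against its own WT group, was tested over all 15 libraries. limma called 0 of 89 members, against 26 of 14394 genes (0.181%; 0.16% positive and 0.0208% negative), and voom weights also gave 0. At an unadjusted p under 0.05 there were 2 members (3 with voom), against 6.54% of all genes (4.77% positive and 1.78% negative): *Cox4i2*, with a difference of 1.45 (limma adjusted p = 0.652), and *Cox7b*, with -0.64 (limma adjusted p = 0.674). The count was 13 without Tie2-Ezh2-KO replicate 9 (1434 of 14299 genes), 8 without Vav-Ezh2-KO replicate 26 (1009 of 14352), 6 without Tie2-Ezh2-WT replicate 4 (921 of 14312). It was 5 after removal of the length trend (1060 of 14394) and 4 with a common sum (931 of 14394). The other alternatives gave 0 to 3. The median difference was -0.17, beside 0.06 over all genes tested, and 65 of the 89 differences were negative. This median moved with the settings, to -0.02 after removal of the length trend (42 of 89 positive), -0.05 without Tie2-Ezh2-WT replicate 12, -0.10 after quantile normalization, -0.11 without Tie2-Ezh2-KO replicate 13, -0.27 without Tie2-Ezh2-KO replicate 9 and -0.32 with a common median. None of the members is therefore shown to respond differently to the deletion by Tie2-Cre and by Vav-iCre.

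Complex I has its catalytic core in 7 nuclear subunits, whose levels ran from 109 RPKM for *Ndufs1*, the largest iron-sulfur subunit, to 467 RPKM for *Ndufs7*, which carries the last iron-sulfur cluster before ubiquinone. None of the 7 differed at an unadjusted p under 0.05 in the comparisons of knockout with WT or of the knockouts in limma, where the adjusted count was 0 too (voom 0 adjusted), and their median change was 0.09 in Tie2-Ezh2-KO and 0.02 in Vav-Ezh2-KO against WT. For example, *Ndufs1* was measured at 122, 99.0 and 112 RPKM in Tie2-Ezh2-WT, 105 and 104 in Vav-Ezh2-WT, 111, 107, 111, 119 and 114 in Tie2-Ezh2-KO and 104, 113, 110, 109 and 98.6 in Vav-Ezh2-KO. The knockouts overlapped with each other and with the pooled WT libraries, although both Vav-Ezh2-WT libraries lay below every Tie2-Ezh2-KO library.

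The 29 accessory subunits of complex I had a median level of 239 RPKM and their most abundant gene was *Ndufb8*, a subunit of the membrane arm. *Ndufb8* was measured at 814, 908 and 1186 RPKM in Tie2-Ezh2-WT, 908 and 846 in Vav-Ezh2-WT, 892, 1557, 1203, 851 and 925 in Tie2-Ezh2-KO and 1002, 931, 1127, 812 and 975 in Vav-Ezh2-KO. The highest values were in Tie2-Ezh2-KO, replicate 9 above all, and the groups overlapped, with a change of 0.19 in Tie2-Ezh2-KO against WT (SE 0.16, limma adjusted p = 0.839, higher in 3 of 5 libraries). *Ndufa12*, the second in level, had a mean of 559 RPKM and changes of 0.08 and 0.11 in Tie2-Ezh2-KO and Vav-Ezh2-KO against WT. *Ndufv3*, a small subunit of the NADH-oxidising module, had the lowest change of all members of at least 10 RPKM in Tie2-Ezh2-KO against WT. Its levels were 45.5, 67.1 and 68.8 RPKM in Tie2-Ezh2-WT, 73.3 and 68.2 in Vav-Ezh2-WT, 48.2, 76.8, 54.3, 49.1 and 57.5 in Tie2-Ezh2-KO and 71.9, 64.7, 77.1, 67.7 and 100 in Vav-Ezh2-KO. Low values occurred in WT as well as in Tie2-Ezh2-KO, and the change was -0.18 (SE 0.15, limma adjusted p = 0.843, lower in 4 of 5 libraries) against WT and -0.42 (SE 0.15, limma adjusted p = 0.145) against Vav-Ezh2-KO. The change against WT was -0.30 without Tie2-Ezh2-WT replicate 4, -0.29 without Tie2-Ezh2-KO replicate 9, -0.28 with array weights and -0.08 with Tie2-Ezh2-WT controls only. *Ndufs5* was listed above 0 in only 1 of 15 libraries, Vav-Ezh2-KO replicate 10, at 0.117 RPKM.

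Assembly factors of complex I are proteins that build the complex and leave it, and *Ndufaf1* to *Ndufaf7* had a lower median level than the subunits of complex I (40.8 against 238 RPKM), with means between 10.4 RPKM for *Ndufaf5* and 84.6 RPKM for *Ndufaf2*. *Ndufaf2* was measured at 81.1, 70.2 and 83.1 RPKM in Tie2-Ezh2-WT, 81.3 and 73.5 in Vav-Ezh2-WT, 75.3, 103, 82.6, 81.2 and 77.5 in Tie2-Ezh2-KO and 88.6, 87.7, 107, 85.0 and 92.2 in Vav-Ezh2-KO. Every Vav-Ezh2-KO library was above every WT library, by 0.24 on the log2 scale (SE 0.09, limma adjusted p = 0.544, two-sided exact permutation p = 0.00794, the smallest that 5 against 5 libraries can give). The change did not pass the adjusted threshold, and it was 0.05 after removal of the length trend (0.19 to 0.27 without 1 library). *Ndufaf4* was measured at 53.8, 40.9 and 38.1 RPKM in Tie2-Ezh2-WT, 34.6 and 32.0 in Vav-Ezh2-WT, 44.4, 50.0, 47.2, 46.7 and 41.1 in Tie2-Ezh2-KO and 36.9, 37.2, 41.0, 36.8 and 31.3 in Vav-Ezh2-KO. The 5 Tie2-Ezh2-KO libraries lay above the 5 Vav-Ezh2-KO libraries, by 0.33 (SE 0.11, limma adjusted p = 0.113, two-sided exact permutation p = 0.00794), whereas against WT the change was 0.22 in Tie2-Ezh2-KO (limma adjusted p = 0.665) and -0.10 in Vav-Ezh2-KO (limma adjusted p = 0.864), with overlap in both. The WT groups differed in the same direction, with means of 44.2 RPKM in Tie2-Ezh2-WT and 33.3 in Vav-Ezh2-WT, and the difference of effects, each against its own WT group, was -0.07 (limma adjusted p = 0.991). The Tie2-Ezh2-KO change of *Ndufaf4* against WT was 0.34 without Tie2-Ezh2-WT replicate 4, 0.35 without both libraries with visceral endoderm transcripts and 0.07 with Tie2-Ezh2-WT controls only. *Ndufaf1*, an early factor of the membrane arm, was the 1 member lower in Vav-Ezh2-KO at an unadjusted p under 0.05, with means of 51.7 ± 5.90 RPKM (SD, n = 5) against 59.3 ± 3.00 (SD, n = 5) in WT, a change of -0.21 (limma adjusted p = 0.620, lower in 5 of 5 libraries).

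Complex II is built from 4 nuclear genes. The flavoprotein *Sdha* was measured at 171, 179 and 229 RPKM in Tie2-Ezh2-WT, 174 and 218 in Vav-Ezh2-WT, 174, 125, 229, 244 and 221 in Tie2-Ezh2-KO and 177, 194, 163, 214 and 164 in Vav-Ezh2-KO. Its lowest value was in Tie2-Ezh2-KO replicate 9, the library in which most other members were high. The iron-sulfur subunit *Sdhb* was measured at 433, 410 and 549 RPKM in Tie2-Ezh2-WT, 422 and 412 in Vav-Ezh2-WT, 479, 644, 519, 410 and 437 in Tie2-Ezh2-KO and 455, 510, 535, 435 and 453 in Vav-Ezh2-KO. Each knockout overlapped with the pooled WT libraries, but both Vav-Ezh2-WT libraries lay below every Vav-Ezh2-KO library. Of the membrane anchors, *Sdhc* had means of 120 ± 5.39 RPKM in WT, 126 ± 18.0 in Tie2-Ezh2-KO and 122 ± 6.99 in Vav-Ezh2-KO (SD, n = 5 each), and *Sdhd*, the most abundant of the 4, had means of 804, 831 and 850 RPKM in the same order. The changes of the 4 genes against WT lay between 0.00 and 0.15 in Tie2-Ezh2-KO and between -0.09 and 0.11 in Vav-Ezh2-KO, and at an unadjusted p under 0.05 limma had 0 of them in each of the 4 comparisons, with 0 after adjustment.

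Complex III was represented by 8 genes, from *Uqcrc2* at 188 RPKM to *Uqcr11* at 1028 RPKM. *Uqcrc1*, the larger core protein of the complex, was measured at 963, 1016 and 1064 RPKM in Tie2-Ezh2-WT, 986 and 904 in Vav-Ezh2-WT, 1176, 1173, 1336, 942 and 996 in Tie2-Ezh2-KO and 923, 818, 1001, 883 and 716 in Vav-Ezh2-KO. It tended to be high in Tie2-Ezh2-KO and low in Vav-Ezh2-KO, with overlap between these groups. The change was 0.18 in Tie2-Ezh2-KO against WT (limma adjusted p = 0.671), -0.19 in Vav-Ezh2-KO against WT (limma adjusted p = 0.654) and 0.37 between the knockouts (SE 0.12, limma adjusted p = 0.126, two-sided exact permutation p = 0.0238, higher in 5 of 5 Tie2-Ezh2-KO libraries than the Vav-Ezh2-KO mean). This last difference was called after quantile normalization and after scaling to a common sum of RPKM, the second added after seeing the data. The Vav-Ezh2-KO change against WT was -0.33 after quantile normalization and -0.12 without Vav-Ezh2-KO replicate 28. *Uqcrc2*, the other core protein, had 187 ± 10.3 RPKM in WT, 188 ± 13.7 in Tie2-Ezh2-KO and 190 ± 13.6 in Vav-Ezh2-KO (SD, n = 5 each). *Uqcrfs1*, the Rieske iron-sulfur protein, had 245 ± 13.5 RPKM in WT, 283 ± 31.5 in Tie2-Ezh2-KO and 258 ± 20.5 in Vav-Ezh2-KO (SD, n = 5 each). It was higher in 5 of 5 Tie2-Ezh2-KO libraries than the WT mean, by 0.21, and the groups overlapped at 1 pair of libraries (limma adjusted p = 0.451, two-sided exact permutation p = 0.0159).

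Complex IV held the 1 member called in Tie2-Ezh2-KO against WT. Cox4 is the subunit at which ATP regulates cytochrome c oxidase; *Cox4i1* is its general form and *Cox4i2* the form known from lung and from cells at low oxygen. *Cox4i2* was measured at 34.2, 34.1 and 24.3 RPKM in Tie2-Ezh2-WT, 27.6 and 47.5 in Vav-Ezh2-WT, 70.0, 65.7, 55.2, 44.0 and 65.5 in Tie2-Ezh2-KO and 37.9, 7.17, 32.2, 38.7 and 32.7 in Vav-Ezh2-KO. Tie2-Ezh2-KO libraries were high, with replicate 13 the only one below a WT library, Vav-Ezh2-WT replicate 6. *Cox4i2* rose in Tie2-Ezh2-KO against WT by 0.86 on the log2(RPKM + 0.2) scale (SE 0.17, 95% interval 0.48 to 1.23, limma adjusted p = 0.0145, two-sided exact permutation p = 0.0159, higher in 5 of 5 libraries than the WT mean). The call was kept when each library was left out in turn, and it was lost without the mean trend in limma (adjusted p = 0.0536), with all 15 libraries in one fit (adjusted p = 0.269) and without both libraries with visceral endoderm transcripts (adjusted p = 0.0856), where the rise was 0.81. Over all alternatives the limma adjusted p ran from 0.00369 to 0.269 and the rise from 0.75 to 0.99. The primitive erythroid genes were high in the same 5 libraries, and their part in this rise was not tested.

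In Vav-Ezh2-KO EMPs *Cox4i2* differed from WT by -0.34 (SE 0.37, limma adjusted p = 0.844, lower in 3 of 5 libraries), by -0.21 without Vav-Ezh2-WT replicate 6, by -0.52 after removal of the length trend, and by 0.11 without replicate 9, whose 7.17 RPKM came from 96 reads. Between the knockouts the groups did not overlap and the difference was 1.20 (SE 0.36, limma adjusted p = 0.0863, two-sided exact permutation p = 0.00794), which passed the threshold when Vav-Ezh2-KO replicate 9 was left out (0.75, limma adjusted p = 0.0127) and after removal of the length trend, with adjusted p from 0.0127 to 0.176 over the alternatives. *Cox4i1* was measured at 768, 929 and 1010 RPKM in Tie2-Ezh2-WT, 1051 and 1014 in Vav-Ezh2-WT, 820, 1299, 898, 798 and 882 in Tie2-Ezh2-KO and 1058, 1038, 1227, 1010 and 1376 in Vav-Ezh2-KO. Its changes were -0.04 (limma adjusted p = 0.974) in Tie2-Ezh2-KO and 0.26 (limma adjusted p = 0.612) in Vav-Ezh2-KO against WT, both with overlap. *Cox4i2* made up 3.44% ± 0.96 of the summed RPKM of both Cox4 genes in WT, 6.12% ± 1.25 in Tie2-Ezh2-KO and 2.54% ± 1.19 in Vav-Ezh2-KO (SD, n = 5 each), so *Cox4i1* was the main form in every library.

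*Cox6b2*, the form of subunit Cox6b best known from testis, had low levels in these cells. It was measured at 7.80, 6.70 and 8.72 RPKM in Tie2-Ezh2-WT, 11.7 and 8.13 in Vav-Ezh2-WT, 18.0, 18.8, 12.5, 9.87 and 11.7 in Tie2-Ezh2-KO and 12.7, 13.2, 10.6, 11.9 and 15.2 in Vav-Ezh2-KO. Both knockouts were mostly above WT, with 1 WT library, Vav-Ezh2-WT replicate 4, inside their ranges. The change was 0.69 in Tie2-Ezh2-KO (SE 0.21, limma adjusted p = 0.107, two-sided exact permutation p = 0.0159) and 0.57 in Vav-Ezh2-KO (SE 0.16, limma adjusted p = 0.519, two-sided exact permutation p = 0.0159), each higher in 5 of 5 libraries than the WT mean. The first passed the threshold with all 15 libraries in one fit and after removal of the length trend, the second in none of the alternatives run, where it was 0.37 with Vav-Ezh2-WT controls only and 0.35 after removal of the length trend. Its common paralog *Cox6b1* was measured at 504, 668 and 752 RPKM in Tie2-Ezh2-WT, 740 and 676 in Vav-Ezh2-WT, 594, 901, 643, 553 and 690 in Tie2-Ezh2-KO and 765, 827, 863, 707 and 1123 in Vav-Ezh2-KO. *Cox6b2* was 1.28% ± 0.25 of the Cox6b sum in WT, 2.06% ± 0.51 in Tie2-Ezh2-KO and 1.48% ± 0.20 in Vav-Ezh2-KO (SD, n = 5 each).

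**Figure D3:**
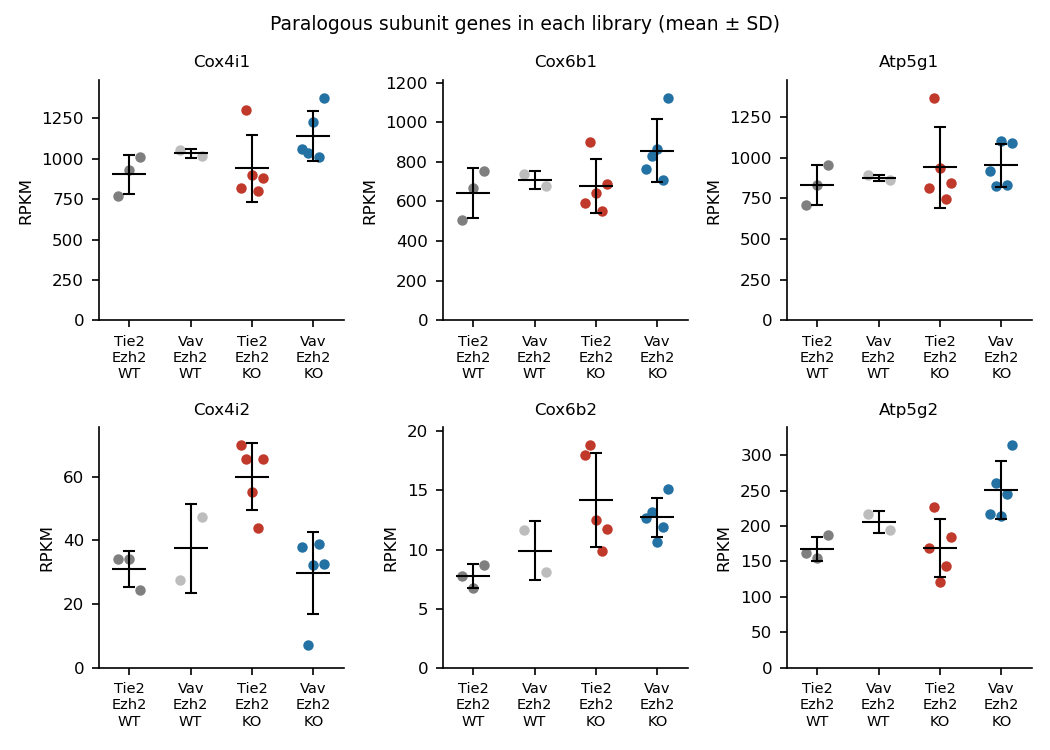
RPKM of pairs of paralogous subunit genes of complexes IV and V in each library, by group; points are libraries, bars the mean and SD. *Cox4i2* lies between 44.0 and 70.0 RPKM in Tie2-Ezh2-KO and between 7.17 and 38.7 RPKM in Vav-Ezh2-KO, and the common forms *Cox4i1* and *Cox6b1* are far more abundant than *Cox4i2* and *Cox6b2*.

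The other isoforms of complex IV known from heart, skeletal muscle or testis had low levels. *Cox6a2*, a heart and skeletal muscle form, was at most 2.76 RPKM and *Cox6a1* took at least 99.6% of the Cox6a sum in every library. *Cox7a1*, of the same tissues, had a mean of 2.94 RPKM, against 320 RPKM for *Cox7a2*, and *Cox7b2*, a testis form, was above 0 in 2 libraries, at 0.124 RPKM in Tie2-Ezh2-KO replicate 11 and 0.343 RPKM in replicate 17, while *Cox7b* had a mean of 231 RPKM. Among the general subunits *Cox6c*, *Cox8a* and *Cox7b* had the lowest changes between the knockouts. *Cox6c* was measured at 301, 341 and 480 RPKM in Tie2-Ezh2-WT, 371 and 344 in Vav-Ezh2-WT, 304, 446, 300, 297 and 368 in Tie2-Ezh2-KO and 435, 554, 516, 323 and 702 in Vav-Ezh2-KO, and *Cox8a* at 534, 655 and 698, at 830 and 740, at 603, 961, 545, 519 and 727, and at 842, 848, 970, 775 and 1278 RPKM in the same order. Vav-Ezh2-KO replicate 28 was highest for both, and the knockouts overlapped with each other and with the pooled WT libraries. For *Cox8a* every Tie2-Ezh2-WT library lay below every Vav-Ezh2-WT and Vav-Ezh2-KO library. Tie2-Ezh2-KO differed from Vav-Ezh2-KO by -0.53 for *Cox6c* (limma adjusted p = 0.130, two-sided exact permutation p = 0.0397), by -0.50 for *Cox8a* (limma adjusted p = 0.137, two-sided exact permutation p = 0.0476) and by -0.49 for *Cox7b* (limma adjusted p = 0.135, two-sided exact permutation p = 0.0476). Leaving out Tie2-Ezh2-KO replicate 9 made the changes of all 3 pass the threshold, at -0.63 for *Cox6c* and -0.64 for *Cox8a* (limma adjusted p = 0.0414 and 0.0161), and leaving out Vav-Ezh2-KO replicate 26 made that of *Cox6c* pass, at -0.68. After removal of the length trend the changes were -0.25 for *Cox6c* and -0.25 for *Cox8a*, and after quantile normalization -0.33 for *Cox8a*. The limma adjusted p ran over the alternatives from 0.0303 to 0.284 for *Cox6c* and from 0.0161 to 0.337 for *Cox8a*. For the same 3 genes the Vav-Ezh2-KO changes against WT were 0.43, 0.44 and 0.42 (limma adjusted p = 0.583, 0.542 and 0.542). Their Tie2-Ezh2-KO changes against WT were -0.10, -0.07 and -0.07. The Cre-negative groups differed in the same direction as the knockouts for *Cox8a*, with means of 629 RPKM in Tie2-Ezh2-WT and 785 in Vav-Ezh2-WT. They differed the other way for *Cox6c* (374 and 358 RPKM) and *Cox7b* (218 and 194 RPKM).

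Complex V contains a ring of identical c subunits, encoded by *Atp5g1*, *Atp5g2* and *Atp5g3*, which differ in their targeting sequences and give the same mature protein. *Atp5g1* took 51.1% ± 3.97 of their summed RPKM in WT, 54.0% ± 4.04 in Tie2-Ezh2-KO and 45.7% ± 3.66 in Vav-Ezh2-KO (SD, n = 5 each). *Atp5g2*, the lowest of complex V, was measured at 162, 155 and 187 RPKM in Tie2-Ezh2-WT, 217 and 194 in Vav-Ezh2-WT, 169, 228, 121, 143 and 184 in Tie2-Ezh2-KO and 217, 261, 214, 246 and 314 in Vav-Ezh2-KO. Vav-Ezh2-KO libraries were high and Tie2-Ezh2-KO libraries low, but for Tie2-Ezh2-KO replicate 9, which lay inside the Vav-Ezh2-KO range. The change between the knockouts was -0.59 (SE 0.16, limma adjusted p = 0.0557, two-sided exact permutation p = 0.0238, lower in 5 of 5 libraries than the Vav-Ezh2-KO mean), against WT it was 0.45 in Vav-Ezh2-KO (SE 0.12, limma adjusted p = 0.519, two-sided exact permutation p = 0.0159) and -0.13 in Tie2-Ezh2-KO (limma adjusted p = 0.895). The first passed the threshold after quantile normalization, with all 15 libraries in one fit, with array weights and when Tie2-Ezh2-KO replicate 9 was left out (-0.70, limma adjusted p = 0.00861), with adjusted p from 0.00861 to 0.140 over the alternatives. It was -0.39 after removal of the length trend. The Vav-Ezh2-KO change of *Atp5g2* was 0.27 with Vav-Ezh2-WT controls only and 0.25 after removal of the length trend. Its Tie2-Ezh2-KO change was -0.25 without Tie2-Ezh2-KO replicate 9, -0.08 without replicate 13 and -0.02 without replicate 11 of the same group. It was -0.07 without Vav-Ezh2-WT replicate 4 and -0.02 with Tie2-Ezh2-WT controls only.

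*Atp5g3* was measured at 474, 470 and 789 RPKM in Tie2-Ezh2-WT, 713 and 775 in Vav-Ezh2-WT, 637, 896, 510, 465 and 661 in Tie2-Ezh2-KO and 759, 970, 922, 807 and 939 in Vav-Ezh2-KO. The lowest Vav-Ezh2-KO library lay above 3 of the WT libraries and below the other 2, with changes of 0.48 in Vav-Ezh2-KO against WT (SE 0.15, limma adjusted p = 0.542, two-sided exact permutation p = 0.0238) and -0.50 between the knockouts (SE 0.16, limma adjusted p = 0.0955, two-sided exact permutation p = 0.0238), the second called with array weights and without Tie2-Ezh2-KO replicate 9. The first was 0.23 with Vav-Ezh2-WT controls only and 0.29 after removal of the length trend. The WT groups differed in the same direction for both genes, with means of 168 RPKM in Tie2-Ezh2-WT and 205 in Vav-Ezh2-WT for *Atp5g2* and 577 and 744 for *Atp5g3*, and the difference of effects, each against its own WT group, was -0.29 for *Atp5g2* and -0.10 for *Atp5g3* (limma adjusted p = 0.980 and 0.991). *Atp5g1* itself had changes of 0.12 and 0.16 against WT (limma adjusted p = 0.899 and 0.728) in Tie2-Ezh2-KO and Vav-Ezh2-KO. Of the F1 head, *Atp5b* was measured at 1235, 1230 and 1236 RPKM in Tie2-Ezh2-WT, 1384 and 1512 in Vav-Ezh2-WT, 1408, 1222, 995, 1216 and 1382 in Tie2-Ezh2-KO and 1306, 1432, 1323, 1466 and 1424 in Vav-Ezh2-KO. The 3 Tie2-Ezh2-WT libraries were nearly equal and below both Vav-Ezh2-WT libraries, and the changes against pooled WT were -0.09 in Tie2-Ezh2-KO (limma adjusted p = 0.899) and 0.08 in Vav-Ezh2-KO (limma adjusted p = 0.844). *Atp5e*, the small epsilon subunit, had a change of -0.13 in Tie2-Ezh2-KO against WT (limma adjusted p = 0.896, lower in 3 of 5 libraries). It was -0.23 without Tie2-Ezh2-WT replicate 4, -0.22 without Tie2-Ezh2-KO replicate 9 and -0.20 without both libraries with visceral endoderm transcripts. It was -0.07 after removal of the length trend, -0.06 without Tie2-Ezh2-KO replicate 13 and -0.05 without Tie2-Ezh2-WT replicate 12.

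Of the 4 members outside the complexes limma called 0 in each comparison (voom 0), and 0 had an unadjusted p under 0.05. *Cox7a2l* had a mean of 120 RPKM and changes of 0.16 and 0.06 against WT in Tie2-Ezh2-KO and Vav-Ezh2-KO (limma adjusted p = 0.842 and 0.895). *Ndufa4l2* was at most 1.48 RPKM, against a mean of 796 RPKM for *Ndufa4*. *Ndufa4l2* differed from WT by 0.45 in Tie2-Ezh2-KO (SE 0.56) and 0.10 in Vav-Ezh2-KO (SE 0.46). *Atp5s* and *Atp5sl* had means of 17.8 and 11.6 RPKM, with changes against WT of 0.10 and -0.07 in Tie2-Ezh2-KO and -0.17 and -0.02 in Vav-Ezh2-KO, and of 0.27 and -0.06 between the knockouts.

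The differences of Vav-Ezh2-KO EMPs went with the length of the genes, which for these members ran from 292 to 3632 bases with a median of 709.5, against 2615 over all genes above 0. Of members with at least 10 RPKM, the 31 with models under 600 bases had a median change of 0.32 in Vav-Ezh2-KO against WT and all 31 were higher. The 150 other genes of this length and level had a median of 0.30, with 90% higher. They include cytoplasmic ribosomal protein genes, and the 118 without these had a median of 0.26, with 87.3% higher. From 600 to under 1000 bases the medians were 0.19 for 22 members and 0.14 for 474 other genes, from 1000 to under 2000 bases 0.07 for 24 members and 0.00 for 1750 other genes, and from 2000 bases 0.00 for 8 members and -0.07 for 3007 other genes. Between the knockouts the members under 600 bases had a median of -0.30, with 0 of 31 higher in Tie2-Ezh2-KO, beside -0.34 for the other genes, those from 600 to under 1000 bases had -0.10, beside -0.11, those from 1000 to under 2000 bases had 0.02, beside 0.01, and those from 2000 bases had -0.07, beside 0.03. In Tie2-Ezh2-KO against WT the medians of the same classes were 0.01, 0.06, 0.06 and 0.03 for members and -0.07, 0.01, 0.00 and -0.04 for other genes. The pattern differed between libraries, and its cause was not tested: the median of short members against the WT mean was 0.69 in Vav-Ezh2-KO replicate 28, 0.42 in replicate 10 and -0.05 in replicate 26, and 0.48 in Tie2-Ezh2-KO replicate 9. For members of 1000 bases or more it was 0.04, 0.15, 0.01 and 0.32. In the same libraries the cytoplasmic ribosomal protein genes had medians of 0.71, 0.42, 0.09 and 0.41.

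**Figure D4:**
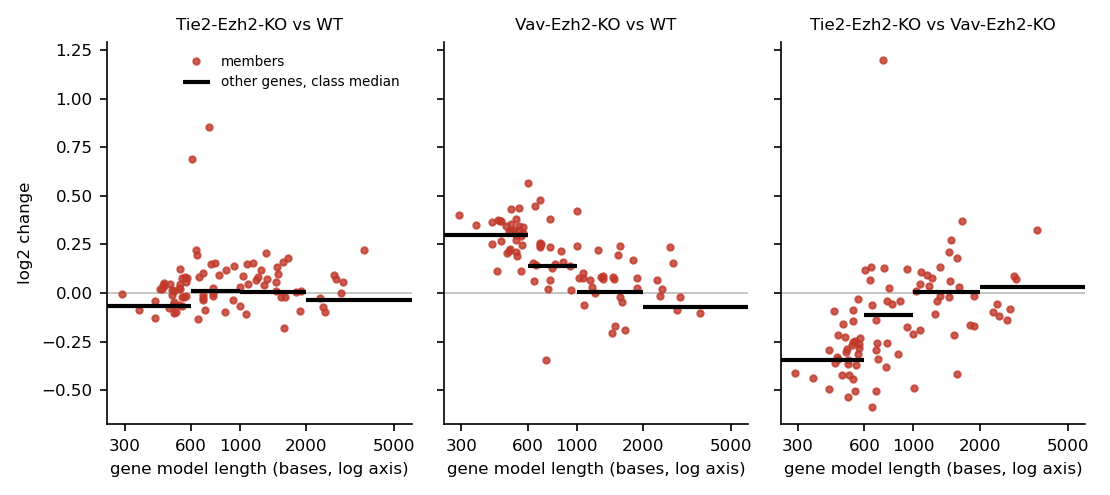
log2 change of each member of at least 10 RPKM against the length of its gene model (log axis) in 3 comparisons; black lines are medians of other genes of that level in 4 length classes. Members under 600 bases have a median of 0.32 in Vav-Ezh2-KO against WT and of -0.30 in Tie2-Ezh2-KO against Vav-Ezh2-KO. In Tie2-Ezh2-KO against WT *Cox4i2* and *Cox6b2* stand apart, at 0.86 and 0.69.

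Related gene lists gave a scale for these values. Cytoplasmic ribosomal proteins, whose genes are short, had a median change of 0.35 in Vav-Ezh2-KO against WT, with 84 of 85 higher, 59 at an unadjusted p under 0.05 and 0 called by limma, while between the knockouts the median was -0.38 with 7 called lower in Tie2-Ezh2-KO, and in Tie2-Ezh2-KO against WT it was -0.04. Mitochondrial ribosomal proteins (76 genes) had medians of 0.05, 0.08 and -0.05 in Tie2-Ezh2-KO against WT, Vav-Ezh2-KO against WT and Tie2-Ezh2-KO against Vav-Ezh2-KO. In the same order the 25 genes of the tricarboxylic acid cycle and pyruvate dehydrogenase had 0.05, 0.00 and 0.04. The 34 assembly factors outside the name rule had 0.03, -0.07 and 0.05, and the 15 electron carriers and partners 0.04, 0.07 and -0.02. Of 25 regulators of respiratory genes and mitochondrial DNA, the 21 tested had -0.05, -0.04 and 0.00, and the 24 glycolysis genes had -0.05, -0.02 and 0.01. In Vav-Ezh2-KO against WT only 24 genes of the tricarboxylic acid list and 23 of the glycolysis list were tested. In Tie2-Ezh2-KO against WT only 33 of these assembly factors were. In these 6 lists limma called 4 genes. *Vdac1*, the main anion channel of the outer mitochondrial membrane, was lower in Tie2-Ezh2-KO than in Vav-Ezh2-KO by a log2 change of -0.65 (limma adjusted p = 0.0133), and *Gapdh*, a glycolytic enzyme, by -0.56 (limma adjusted p = 0.0290). The Cre-negative groups differed likewise, with means of 115 RPKM in Tie2-Ezh2-WT and 175 in Vav-Ezh2-WT for *Vdac1* and 1752 and 2531 for *Gapdh*, and the difference of effects was -0.02 for *Vdac1* and -0.03 for *Gapdh*. *Mycn*, a transcription factor of the Myc family, was higher in Tie2-Ezh2-KO than in Vav-Ezh2-KO by 1.48 (limma adjusted p = 0.00223), while against WT it differed by 0.13 in Tie2-Ezh2-KO (limma adjusted p = 0.940) and by -1.36 in Vav-Ezh2-KO (limma adjusted p = 0.130). *Ldhb*, the lactate dehydrogenase subunit of oxidative tissues, was higher in Tie2-Ezh2-KO by 1.92 against WT (limma adjusted p = 0.000383) and by 1.67 against Vav-Ezh2-KO (limma adjusted p = 0.000391). The difference of effects was 1.53 for *Mycn* and 1.32 for *Ldhb*, and neither passed the threshold (limma adjusted p = 0.223 and 0.306). Of the subunits encoded by mitochondrial DNA 0 of 26 names searched were in the table, and they were not analysed here.

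The members are scattered over the genome. In the RefSeq annotation of GRCm38.p6 all 90 had a position, 87 under their symbol and 3 under a synonym, on 19 chromosomes, with 9 on chromosome 7 and 3 on the X chromosome. *Cox4i2* lies at chr2:152753916-152765039 and *Cox4i1* at chr8:120668225-120674209. RefSeq promoters, 250 bases before to 50 after a start, were at hand for 75 members with 81 starts, and were searched on both strands for core motifs of factors known to act on respiratory genes. GCGCANGCG, read by NRF1, was in 28.4% of member promoters, in 6.25% of all 32851 promoters and in 19.2% of those of other genes above 100 RPKM. CCGGAAG, read by GABPA, was in 21.0%, 8.86% and 28.7%, and AAGATGGC, read by YY1, in 14.8%, 2.75% and 7.20%. A match is only a match of letters. Upstream bases of both Cox6b genes and of *Ndufaf4* are shown, 5′ to 3′ on the strand of the gene and without bases that overlap an exon: *Cox6b1* at chr7:30626152-30626364 (minus), *Cox6b2* at chr7:4753095-4753225 (minus) and *Ndufaf4* at chr4:24897833-24898082 (plus), from RefSeq with GRCm38.p6. Capitals mark the NRF1 motif, present only in the last, where 2 matches on opposite strands overlap. The promoter of *Cox6b1* also held the GABPA motif, but not within the bases shown.
Cox6b1: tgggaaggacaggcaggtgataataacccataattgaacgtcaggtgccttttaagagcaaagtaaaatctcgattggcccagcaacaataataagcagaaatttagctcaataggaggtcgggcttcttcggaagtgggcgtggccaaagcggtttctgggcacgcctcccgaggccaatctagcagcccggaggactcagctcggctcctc
Cox6b2: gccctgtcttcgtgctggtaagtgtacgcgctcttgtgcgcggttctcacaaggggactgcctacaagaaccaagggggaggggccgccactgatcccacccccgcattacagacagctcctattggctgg
Ndufaf4: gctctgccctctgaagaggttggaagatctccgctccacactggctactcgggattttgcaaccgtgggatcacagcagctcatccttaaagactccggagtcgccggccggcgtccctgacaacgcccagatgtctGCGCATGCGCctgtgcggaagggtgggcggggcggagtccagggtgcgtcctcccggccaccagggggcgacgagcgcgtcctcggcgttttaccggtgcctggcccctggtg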

How the data were processed

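Sorted EMPs (500 cells per library in the labels; the study's methods state another number) were amplified with 16 PCR cycles and sequenced as 75-base single-end reads. The authors aligned reads with TopHat2 2.0.13 to GRCm38/mm10, keeping 1 alignment per read (-g 1), counted RefSeq genes with featureCounts and deposited RPKM, which was used here. With 1 alignment per read, reads of members that have processed pseudogenes cannot be placed for certain. DESeq2, the authors' test on counts, was not run. Dividing RPKM by its step gave whole reads, within 0.0001, for all 16877 genes above 0. limma 3.58.1 in R 4.3.3 (lmFit, eBayes with trend) was run on log2(RPKM + 0.2), which understates changes of low genes, for genes that exceeded 0.2 RPKM in any library compared, adjusting by Benjamini-Hochberg over these genes at 0.05, and was tried on simulated data. Of the 90 members, 89, 88, 89 and 89 passed this filter in the 4 comparisons. Exact permutation tests took the 252 divisions of 10 libraries. The members and all lists, of other cell types and of related pathways, were chosen with earlier results of these data known. Named by rule were members past the threshold, the 2 highest and the lowest subunit of each complex, complex II and paralogous isoforms. Also named, in each comparison but the difference of effects, were the 3 largest rises and falls of members of at least 10 RPKM and members without overlap. This gave 34 in all, and other names were chosen after their values were seen. Alternatives were other pseudocounts, filters, scalings and controls, no trend, array weights, 1 fit of all libraries, and leaving out each library; voom, a common sum, removal of the length trend (lowess, span 0.3) and leaving out both libraries with visceral endoderm transcripts were added after seeing the data.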

Additional observations from a re-analysis of the deposited data

Results flagged for a closer look

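Among 111 sets of 5 libraries (38 quantities, each within the pooled WT, Tie2-Ezh2-KO or Vav-Ezh2-KO libraries where measured), 11 had 1 library far from the other 4 by Dixon's ratio above 0.71. Chance flags about 1 in 20 such groups, and members of 1 library are not independent. Tie2-Ezh2-KO replicate 9 was high for *Cox4i1* (1299 RPKM, the others 798 to 898), for *Ndufaf2* (103 RPKM, the others 75.3 to 82.6) and for the sum over all members (39475, the others 25548 to 29559). Tie2-Ezh2-WT replicate 12 was high among WT libraries for *Cox7b* (262 RPKM, the others 191 to 200), *Ndufa4* (903 RPKM, the others 692 to 730), *Ndufb8* (1186 RPKM, the others 814 to 908) and *Sdhb* (549 RPKM, the others 410 to 433), and Tie2-Ezh2-WT replicate 4 was low for *Ndufv3* (45.5 RPKM, the others 67.1 to 73.3). Vav-Ezh2-KO replicate 9 was low for *Cox4i2* (7.17 RPKM, the others 32.2 to 38.7). Vav-Ezh2-KO replicate 10 was high for *Cox7a2l* (145 RPKM, the others 109 to 117), and Tie2-Ezh2-KO replicate 11 for *Cox6a2* (2.76 RPKM, the others 0.471 to 0.695).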

How the results depend on the processing

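In Tie2-Ezh2-KO against WT limma called 1 member; it called 0 without the trend and without both libraries with visceral endoderm transcripts, 2 after removal of the length trend, and 1 in each fit without 1 library. With all 15 libraries in one fit the 1 member called was *Cox6b2*. In Vav-Ezh2-KO against WT and for the difference of the knockout effects 0 members were called in every alternative. Between the knockouts the count of 0 became 2 after quantile normalization, 1 with all 15 libraries in one fit, 2 with array weights, 1 with a common sum, 2 after removal of the length trend, and 0 to 17 without 1 library; quantile normalization moved the share of higher calls among all genes from 75.2% to 63.6%. The median over members ranged from -0.07 to 0.09 in Tie2-Ezh2-KO against WT, from 0.05 to 0.26 in Vav-Ezh2-KO against WT and from -0.22 to -0.00 between the knockouts, and from -0.32 to -0.02 for the difference of effects. The count of all genes called moved in Tie2-Ezh2-KO against WT from 386 to between 187 (Tie2-Ezh2-WT controls only) and 533 (array weights), and between the knockouts from 495 to between 320 and 969. For the difference of effects it moved from 26 to between 2 (voom) and 32, with quantile normalization moving its share of higher calls from 88.5% to 75.0%. The median difference of effects over all genes, 0.06 in the main fit, was 0.11 with a common sum, -0.01 after quantile normalization and -0.07 with a common median. Of 513 alternatives for 22 pairs of member and comparison, 496 kept direction and side of the threshold, 3 lost the call, 13 gained one and 1 reversed. Only *Cox4i2* in Tie2-Ezh2-KO against WT was called in the main fit, and it kept the call in 21 of 24 alternatives. The other pairs started above the threshold, so keeping their side does not show that a call is firm. The reversal was *Cox4i2* in Vav-Ezh2-KO against WT, -0.34, from -0.49 to 0.11 without 1 library, with 0.11 without Vav-Ezh2-KO replicate 9. The causes were not tested. No paired analysis was possible because the labels do not name the litter of a library. Each p-value rests on 5 libraries a group or fewer, the replicates' independent experiments were not assigned to libraries in the labels, and RPKM does not correct for a difference between libraries in the recovery of short transcripts. A p above the threshold does not show that levels were equal.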
